A study of Arabidopsis thaliana with 4 samples.

Results

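The leaf library labelled sme1-1 4 °C was compared with the leaf library labelled Col-0 4 °C, which are 2 of the 4 RNA sequencing libraries of a study of the Sm-ring protein SmE1 in *Arabidopsis thaliana*. Of 23049 genes with a read in at least 1 library, the 17218 with a mean of at least 1 CPM (the reads of a gene per M reads of its library) over the 4 libraries were compared. The gene just inside that limit was AT2G42395 at 1.0003 CPM, and the gene just outside it was AT5G61360 at 0.99932 CPM. Per the labels, the plants were 2 weeks old, of the wild-type accession Col-0 or of sme1-1, a line in the Col-0 background named for an allele of SME1, grown on soil in long days at 90 µmol m-2 s-1. The cold groups spent 24 h at 4 °C at 40 µmol m-2 s-1, so by their labels both libraries compared here share the lower light as well as the lower temperature. The kind of allele in sme1-1 and the number of plants behind a library are not stated in the labels. Each group had 1 library, which leaves no replicate spread to judge a difference by, and all intervals are exact 95% intervals for counting error alone.

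The Sm ring is a ring of proteins assembled on most spliceosomal small nuclear RNAs, and without it the spliceosome does not form. SME1 and SME2 both encode its E subunit in this plant. Cold acclimation is the process by which leaves gain freezing tolerance during days of low, non-freezing temperature. In it the CBF transcription factors bind the C-repeat of target promoters, and genes for dehydrins, chloroplast-protecting COR proteins and galactinol synthases are strongly induced.

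The targeted gene did not follow the genotype label. SME1 (AT2G18740, chromosome 2) was read 655 and 1252 times with the labels Col-0 and sme1-1 at 20 °C, and 32 and 43 times with those labels at 4 °C. In CPM, with counting intervals and in that order, these were 14.7 (13.6 to 15.9), 27.8 (26.3 to 29.4), 0.679 (0.464 to 0.958) and 0.919 (0.665 to 1.24). The gene was thus low in both libraries compared here and high in both labelled 20 °C, and the 4 °C ratio was 1.35-fold (0.837 to 2.21). SME2 (AT4G30330, chromosome 4) had 456, 520, 483 and 449 reads in the same order, a range of 9.59 to 11.6 CPM.

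These values leave 2 readings of the pair. As labelled, it is sme1-1 against Col-0, both after 24 h at 4 °C. If the labels sme1-1 20 °C and Col-0 4 °C were exchanged, SME1 would be low in both sme1-1 libraries and high in both Col-0 libraries, and the pair would be sme1-1 plants at 4 °C against sme1-1 plants at 20 °C, with temperature and light differing together. The other pair, labelled sme1-1 20 °C and Col-0 20 °C, would then be Col-0 at 4 °C against Col-0 at 20 °C. Directions below are directions between labels. The difference between the log2 ratios of both pairs is the same sum of 4 values under either reading, a genotype-by-temperature difference.

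The promoters of 3 strongly differing genes are shown because they carry a motif counted further on. Each is the window from 250 bases before to 50 bases after the annotated gene start, 300 bases, 5′ to 3′ on the gene's strand, from the RefSeq TAIR10.1 genome. The deposited tables hold no coordinates and name the build TAIR10, so positions are those of TAIR10.1 alone. Capitals mark CCGAC, the C-repeat core, or its reverse complement. The windows are chr3:18940393-18940692 (plus strand) for LTI30, chr5:21240467-21240766 (plus) for LTI78 and chr2:17712281-17712580 (minus) for COR15A, with 3, 4 and 2 matches.
LTI30: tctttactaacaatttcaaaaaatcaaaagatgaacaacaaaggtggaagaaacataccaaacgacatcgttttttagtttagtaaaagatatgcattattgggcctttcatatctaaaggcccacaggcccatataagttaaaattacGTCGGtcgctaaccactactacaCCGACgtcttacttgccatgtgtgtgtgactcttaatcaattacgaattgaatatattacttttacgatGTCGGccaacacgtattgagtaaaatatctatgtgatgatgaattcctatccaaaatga
LTI78: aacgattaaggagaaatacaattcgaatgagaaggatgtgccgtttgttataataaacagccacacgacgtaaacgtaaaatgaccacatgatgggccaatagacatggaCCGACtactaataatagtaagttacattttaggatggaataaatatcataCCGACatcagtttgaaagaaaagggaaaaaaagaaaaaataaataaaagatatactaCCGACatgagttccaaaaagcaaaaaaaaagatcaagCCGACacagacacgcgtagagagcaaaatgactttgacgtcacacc
COR15A: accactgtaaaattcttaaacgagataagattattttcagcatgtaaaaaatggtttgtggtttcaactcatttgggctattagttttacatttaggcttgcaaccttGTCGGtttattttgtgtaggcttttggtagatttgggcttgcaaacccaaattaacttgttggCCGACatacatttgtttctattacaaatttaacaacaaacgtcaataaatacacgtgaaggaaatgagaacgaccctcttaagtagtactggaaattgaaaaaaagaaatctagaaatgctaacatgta

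More genes stood far above than far below the Col-0 4 °C label in the library labelled sme1-1 4 °C. A ratio of 2-fold or more separated 2009 genes on the higher side, 11.7% of the 17218, and 1335 on the lower side, 7.75%. These are the background shares for every list below. The log2 ratio (with 2 reads added as a prior) had a median of 0.09 over all genes. With TMM factors in place of library totals the counts were 1724 and 1653, and the median moved by -0.10, so the split between higher and lower depends on the scaling. Among larger differences the higher side held a larger share: 429 genes against 207 at 4-fold, 152 against 43 at 8-fold, and 32 against 2 at 32-fold.

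Level had some bearing on these shares. Among the 2439 genes with a mean of 1 to 3 CPM, 16.3% were 2-fold or more higher and 13.6% as much lower. Among the 1572 genes of at least 100 CPM, 9.35% were higher and 7.95% lower. Counted over all genes in the tables, 64 lacked reads with the label Col-0 4 °C while the label sme1-1 4 °C had 10 or more, and 75 showed the reverse. Library totals ran from 44.6 M to 47.2 M reads, and 0 reads allowed at most 0.0636 to 0.0672 CPM.

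**Figure D1:**
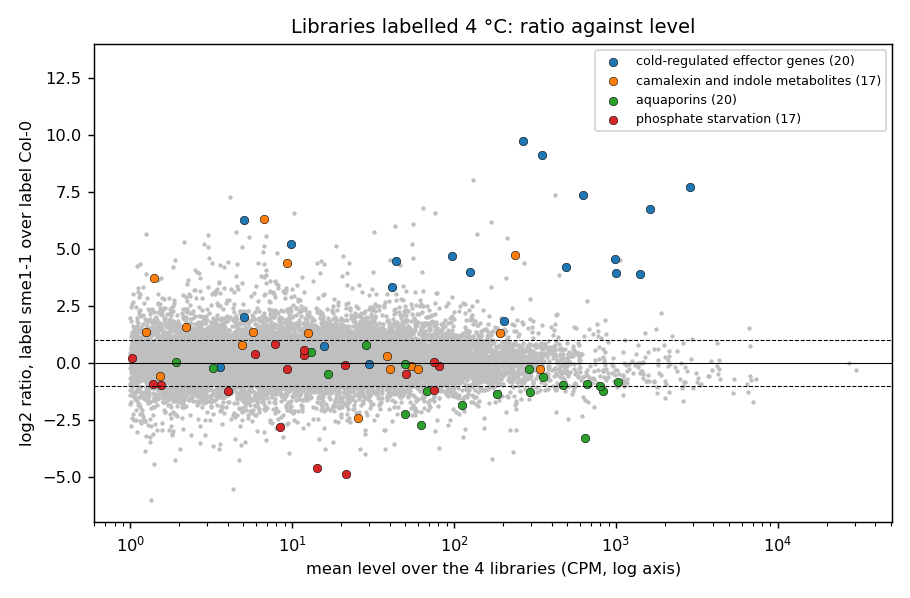
Log2 ratio (label sme1-1 over label Col-0, both labelled 4 °C) against the mean level over the 4 libraries in CPM on a log axis; each grey point is 1 of 17218 genes, coloured points are members of 4 gene lists, and dashed lines mark 2-fold. Most cold-regulated genes stand far above the rest at all levels, and no aquaporin or phosphate starvation gene lies above the upper dashed line.

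Cold-regulated genes held the 2 largest ratios of all genes compared. Of the 20 effector genes listed, all compared, 17 were at least 2-fold higher with the label sme1-1 4 °C and 0 were lower, with a median log2 ratio of 4.33 against 0.09 over all genes. LTI30, a dehydrin that associates with membranes, had 76, 15256, 38 and 33929 reads in the order just used for SME1, Col-0 then sme1-1 labelled 20 °C followed by Col-0 then sme1-1 labelled 4 °C; all series of 4 values below keep it. Between the libraries labelled 4 °C it was 900-fold higher (655 to 1271). It was high in both libraries labelled sme1-1 and low in both labelled Col-0.

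KIN1, a small protein induced by cold and abscisic acid, had 38, 19242, 81 and 45573 reads, a 567-fold difference at 4 °C (456 to 714). Its near-identical neighbour KIN2 had 3547, 65047, 4724 and 108962, and unique reads may be split unevenly between such copies. COR15A, which protects chloroplast membranes in freezing, had 1155, 229033, 1421 and 293517 reads and was 208-fold higher (198 to 219). Its tandem relative COR15B had 212, 53793, 362 and 60476 reads and was 168-fold higher (152 to 187). In each of these genes the 2 libraries labelled sme1-1 lay above both labelled Col-0.

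LTI78, also known as RD29A and a classical reporter of cold and drought signalling, had 1936, 108964, 1728 and 185452 reads, 108-fold apart (103 to 113). The dehydrin ERD10 had 7395, 113890, 8678 and 126874 reads and was 14.7-fold higher (14.4 to 15.1), and COR47 had 6458, 91970, 5186 and 80096. COR27, a cold-induced regulator of the clock, had 8, 309, 6 and 604 reads and was 101-fold higher (46.3 to 277). The 3 members within 2-fold were RCI2B, COR413-PM2 and COR314-TM2, at log2 ratios of -0.17, -0.07 and 0.75. As labelled, this reads as cold-regulated genes that were low in Col-0 after 24 h at 4 °C and high in sme1-1. Under the exchange, it reads as sme1-1 plants with these genes high at 4 °C and low at 20 °C.

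Upstream of these genes the differences were smaller. Of 25 cold signalling factors listed, 17 were compared, 5 were higher and 1 lower. CBF2, a transcription factor that binds the C-repeat, had 31, 176, 26 and 178 reads and was 6.90-fold higher (4.55 to 10.8). RAV1 had 619, 2262, 285 and 1289 reads, and RAP2.1, a repressor of cold-regulated genes, had 280, 1851, 271 and 1682. STZ, the zinc-finger repressor also called ZAT10, was the member at least 2-fold lower, with 1386, 440, 1416 and 349 reads, 4.03-fold (3.58 to 4.54).

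**Figure D2:**
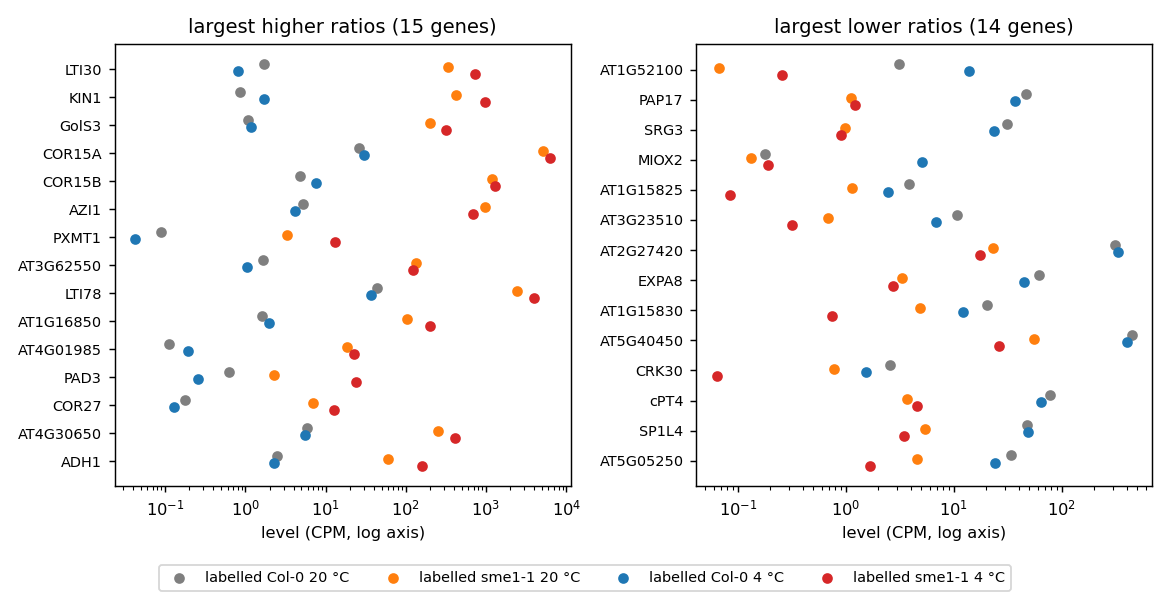
Level in CPM (log axis) of the genes with the 15 largest higher ratios and the 15 largest lower ratios, each point 1 library; FTM1 is left out of the right panel because it has 0 reads in the library labelled sme1-1 4 °C. In every gene drawn except MIOX2 both libraries labelled sme1-1 lie on one side of both labelled Col-0; in MIOX2 the library labelled Col-0 4 °C stands alone.

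Outside the cold list, the largest higher ratios included enzymes and defence genes. GolS3, a galactinol synthase of raffinose synthesis, had 48, 9072, 56 and 14929 reads and was 269-fold higher (207 to 356). AZI1, a lipid-transfer-like protein of defence priming, had 230, 44126, 195 and 32337 reads, 167-fold higher (145 to 193). PXMT1, a methyltransferase, had 4, 147, 2 and 614 reads, and its ratio of 309 rests on those 2 reads (85.3 to 2560). ADH1, alcohol dehydrogenase, had 111, 2681, 106 and 7370 reads, 70.0-fold higher (57.8 to 85.7). AT4G30650, annotated as a low temperature and salt responsive protein, was 73.3-fold higher (64.9 to 83.1), and AT3G62550, AT1G16850 and AT4G01985 were 117-fold, 98.9-fold and 117-fold higher.

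Genes of sucrose and starch metabolism and of sugar transport had more members higher than lower. In the galactinol, sucrose and starch list, 16 of 30 compared were higher and 2 lower, median 1.27. SUS1, which cleaves sucrose, had 571, 10987, 607 and 26936 reads, 44.7-fold higher (41.2 to 48.5). PHS2, the cytosolic glucan phosphorylase, was 20.6-fold higher (19.5 to 21.8), and SEX1, which phosphorylates starch for breakdown, had 2901, 14547, 3944 and 20784 reads. SIP2, an alpha-galactosidase of raffinose breakdown, was 10.09-fold higher (9.53 to 10.7). GBSS1, which makes amylose, was one of the lower pair at a log2 ratio of -2.17.

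Of 22 sugar transporters compared, 11 were higher and 2 lower, median 1.07. MSS1, the hexose carrier also called STP13, had 17, 166, 25 and 490 reads and was 19.7-fold higher (13.2 to 30.8). SWEET4 was 11.8-fold higher (9.04 to 15.7), SWEET13 5.02-fold (4.18 to 6.06), and the sucrose carrier SUC1 3.41-fold (3.26 to 3.56). SWEET12, an exporter of sucrose towards the phloem, had 860, 921, 639 and 1963 reads, so that the library labelled sme1-1 4 °C alone stood out. The sugar starvation and dark-induced list was divided, with 6 of 20 higher and 5 lower, median -0.33; BT2, a sugar-responsive gene on it, had 43, 3385, 42 and 2352 reads, 56.4-fold higher (41.6 to 78.5). Of 8 proline genes, 3 were higher and 0 lower; P5CS1, the committed step of proline synthesis, had 5384, 10422, 8004 and 25782 reads.

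Flavonoid enzymes had 8 of 18 higher and 0 lower, median 0.84. Chalcone synthase TT4, the entry step, had 29143, 122325, 36088 and 163282 reads, 4.56-fold higher (4.51 to 4.61). The flavonol glycosyltransferase UGT78D3 had 5, 546, 13 and 701 reads and was 54.3-fold higher (31.6 to 103). Of 16 flavonoid regulators, 4 were higher and 2 lower, or 3 and 4 with TMM factors. The repressor MYBL2 was 6.48-fold higher (5.82 to 7.21) and LBD39 4.096-fold higher (3.85 to 4.36), whereas the activator HY5 was 5.48-fold lower (4.84 to 6.22) and MYB111 was 2.45-fold lower (2.17 to 2.78).

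**Figure D3:**
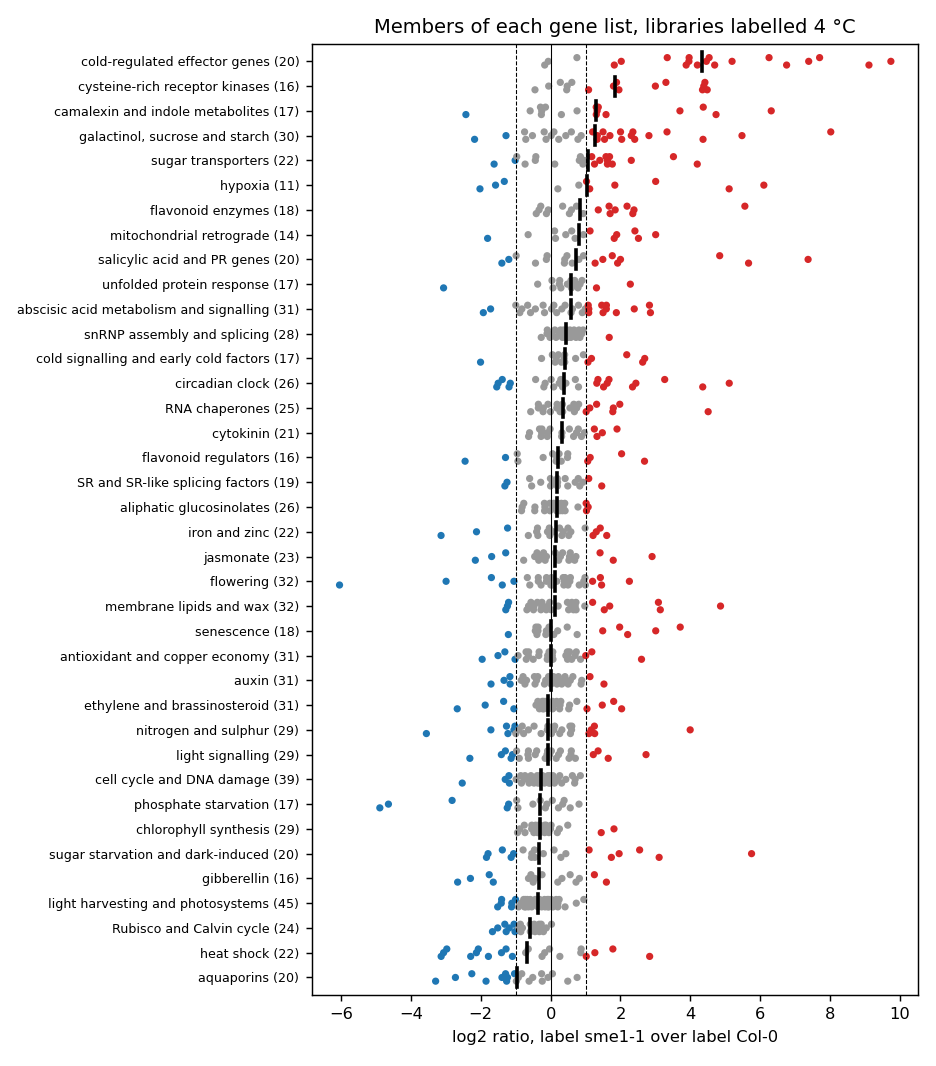
Log2 ratio of every compared member of 38 gene lists, ordered by their medians (black bars), with the number of compared members in brackets; red points are at least 2-fold higher and blue points at least 2-fold lower with the label sme1-1 4 °C. The cold-regulated list has the highest median at 4.33 and the aquaporins the lowest at -0.95.

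Clock genes differed in both directions: 10 of 26 were higher and 5 lower. PRR5, an evening repressor of the clock, had 32, 1406, 54 and 1922 reads and was 35.9-fold higher (27.4 to 47.9). The blue-light F-box gene FKF1 had 2, 87, 4 and 120 reads, 30.2-fold (11.5 to 113), and TOC1 was 5.45-fold higher (4.94 to 6.02). The morning gene LHY had 37315, 15143, 33443 and 12730 reads, whereas its partner CCA1 had 22577, 26649, 21478 and 26111. Time of harvest is not stated in the labels, and its part in these values was not tested.

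Defence-related groups were higher in part. Of 17 camalexin and indole genes, 9 were higher and 1 lower, median 1.31. PAD3, the last enzyme of synthesis of the antimicrobial camalexin, had 28, 102, 12 and 1105 reads and was 92.8-fold higher (52.9 to 180). GSTF6, a glutathione transferase of the same pathway, had 763, 8662, 1267 and 33547 reads, 26.7-fold higher (25.2 to 28.2); its near-identical neighbour GSTF7 was 37.0-fold higher (32.3 to 42.6). IGMT2, a methyltransferase of indole glucosinolates, was 21.4-fold higher (16.2 to 28.9). The single lower member was MYB34, a regulator of indole glucosinolates, at a log2 ratio of -2.42. In PAD3 and GSTF6 the library labelled sme1-1 4 °C lay above the other 3.

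Cysteine-rich receptor kinases, cell-surface proteins tied to defence and oxidative stress, had 10 of 16 listed members higher and 0 lower, median 1.84. CRK14 had 61, 766, 82 and 1862 reads and was 22.9-fold higher (18.3 to 28.9). CRK6 had 95, 747, 80 and 1698 reads (21.4-fold, 17.1 to 27.1), and CRK7 had 54, 162, 22 and 507 (23.2-fold, 15.2 to 37.4). CRK5, CRK6, CRK7 and EP1 (AT4G23130, AT4G23140, AT4G23150 and AT4G23170) are neighbours on chromosome 4 and formed the 1 run of at least 3 neighbouring genes that were all at least 4-fold apart in 1 direction. Related kinases in tandem share sequence, so their unique reads are uncertain. Over all 24 compared genes annotated as such kinases, 11 were higher and 3 lower; CRK30 was 24.2-fold lower (7.95 to 120), from 73 reads to 3.

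Salicylic acid and PR genes had 8 of 20 higher and 2 lower, median 0.71. PR5, a thaumatin-like defence protein, had 466, 9477, 300 and 15219 reads, 51.1-fold higher (45.6 to 57.5). PR1, the usual marker of salicylic acid signalling, had few reads, 74, 96, 28 and 82 reads. SARD1, an activator of salicylic acid synthesis, had 135, 189, 148 and 594 reads, highest with the label sme1-1 4 °C. Of 36 glutathione S-transferases, 13 were higher and 3 lower, median 0.44, with GSTU4 17.9-fold higher (9.53 to 38.04), from 10 reads to 178.

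Genes that respond to mitochondrial dysfunction had 6 of 14 higher and 1 lower, median 0.82. AOX1A, the alternative oxidase and the classical marker of this response, had 1121, 939, 860 and 3022 reads. UGT74E2, an auxin glucosyltransferase of the same regulon, had 225, 72, 126 and 1020 reads, 8.16-fold higher (6.77 to 9.89). SOT12 was 5.74-fold higher (5.12 to 6.46). In these 3 genes the library labelled sme1-1 4 °C was the highest of the 4. The alternative dehydrogenases NDB2 and NDB4 exceeded the other library 5.35-fold (4.85 to 5.91) and 3.74-fold (3.24 to 4.33); NDB4 had 14, 27, 240 and 890 reads, so both libraries labelled 4 °C exceeded both labelled 20 °C.

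Abscisic acid genes had 11 of 31 higher and 2 lower, median 0.59. ABF1, a transcription factor of the response, was 7.21-fold higher (5.95 to 8.80), ABI5 7.95-fold (4.85 to 13.8) and the NAC factor RD26 5.31-fold (4.48 to 6.33). The receptor gene PYL4 was on the other side, 3.80-fold lower (3.54 to 4.09). Among RNA chaperones, 7 of 25 were higher and 0 lower. GRP7, a glycine-rich RNA-binding protein induced by cold, had 2832, 121162, 2923 and 66145 reads and was 22.8-fold higher (21.97 to 23.7), the highest value being in the library labelled sme1-1 20 °C.

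Of 28 genes listed for snRNP assembly, splicing and related RNA processing, which include the decapping genes DCP2 and VCS, 1 was at least 2-fold higher and 0 lower, median 0.45. That gene was SKB1: the methyltransferase PRMT5, which acts on Sm proteins, had 731, 2017, 654 and 2083 reads, 3.21-fold higher (2.94 to 3.51). Of 19 SR and SR-like splicing factors, 2 were higher and 2 lower, or 1 and 2 with TMM factors, median 0.20. RS40 was 2.76-fold higher (2.61 to 2.93), and SCL33 and SR45a were 2.48-fold (2.23 to 2.76) and 2.38-fold (2.125 to 2.67) lower. Cytosolic and organellar ribosomal proteins had 31 of 308 higher and 5 lower, which is 10.06% and 1.62% against 11.7% and 7.75% over all genes, median 0.42. The tables count reads per gene, so splicing within a gene was not measured.

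Several groups had more members lower than higher. Of 20 aquaporins, all compared, 0 were higher and 9 lower, median -0.95. DELTA-TIP, a water channel of the vacuole membrane, had 52630, 9237, 51231 and 5200 reads and was 9.78-fold lower (9.50 to 10.06). The plasma membrane channels RD28, PIP1;5 and PIP2B were 6.61-fold (6.15 to 7.12), 4.78-fold (4.39 to 5.21) and 3.60-fold (3.45 to 3.76) lower. Each of these 4 was low in both libraries labelled sme1-1.

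Wall-loosening genes went the same way. Expansins had 6 of 18 lower and 3 higher, and xyloglucan endotransglucosylases 6 of 15 lower and 0 higher. EXPA8 had 2768, 149, 2103 and 128 reads, 16.3-fold lower (13.6 to 19.6), and EXPB1 was 10.2-fold lower (8.50 to 12.4). EXPA16 was an exception, 5.95-fold higher (5.54 to 6.40). The touch-induced TCH4 was 4.44-fold lower (3.84 to 5.15). SAUR genes, small auxin-induced proteins of cell expansion, had 10 of 28 lower and 4 higher, median -0.76; SAUR27 was 10.4-fold lower (5.87 to 20.003), whereas AT1G16510 of the same family was 24.3-fold higher (13.7 to 47.7).

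Phosphate starvation genes had 5 of 17 lower and 0 higher, median -0.30. PAP17, a phosphatase induced by low phosphate, had 2087, 50, 1755 and 57 reads, 30.6-fold lower (23.5 to 40.5). SRG3, a glycerophosphodiester phosphodiesterase, had 1397, 44, 1103 and 42 reads, 26.1-fold lower (19.2 to 36.4), and the phosphate sensor gene SPX1 was 7.18-fold lower (5.79 to 8.98). Both libraries labelled sme1-1 were low in all 3. Iron and zinc genes were divided, with 4 of 22 higher and 3 lower, among them the regulator of iron homeostasis PYE, 8.85-fold lower (7.69 to 10.2). So were nitrogen and sulphur genes, with 5 of 29 higher and 6 lower: LSU2, induced by low sulphur, was 11.8-fold lower (10.4 to 13.5), and the glutamine synthetase gene GSR 1 was 16.02-fold higher (14.5 to 17.7).

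Heat shock genes had 10 of 22 lower and 4 higher, median -0.68. The summed level of the list went the other way, at 3856 CPM with the label Col-0 4 °C and 6983 with the label sme1-1 4 °C. The highest count of any member in these libraries was 148932 and 269180 reads. The factor HSFA2 had 99, 15, 140 and 16 reads, 8.69-fold lower (5.16 to 15.6), the co-chaperone Hop3 was 9.50-fold lower (6.05 to 15.7) and the coactivator MBF1C 8.56-fold lower (6.68 to 11.1). DREB2B, a drought and heat factor on the same list, was 7.52-fold higher (5.19 to 11.3). The wider family of heat shock and DnaJ proteins gave another split, with 19 of 81 higher and 7 lower.

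Photosynthesis genes were lower by small amounts. The Rubisco and Calvin cycle list had 7 of 24 lower and 0 higher, median -0.58, and light harvesting and photosystems had 6 of 45 lower and 0 higher, median -0.35. Rubisco activase RCA had 445328, 158858, 416039 and 171223 reads, 2.41-fold lower (2.398 to 2.43). The small subunit genes RBCS2B and RBCS3B were 3.166-fold (3.14 to 3.20) and 2.48-fold (2.46 to 2.49) lower, with near-identical copies that unique reads may split. ELIP2, an early light-induced protein of photoprotection that is on neither list, was 6.65-fold higher (6.35 to 6.97). Plastid-encoded genes held 1.51%, 1.101%, 1.72% and 1.31% of the reads.

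The largest lower ratios were held by genes of several kinds. FTM1, a stearoyl-ACP desaturase of the shoot apex, had 110, 6, 130 and 0 reads, at least 43.0-fold lower when 3 reads are taken as the limit for 0. AT1G52100, a jacalin-like lectin, had 139, 3, 647 and 12 reads, 53.5-fold lower (30.4 to 104). AT2G27420, a cysteine protease gene, had 13964, 1043, 15614 and 814 reads, 19.0-fold lower (17.7 to 20.5). AT5G40450 had 19796, 2502, 18938 and 1235 reads, 15.2-fold lower (14.4 to 16.1). These 4 genes were low in both libraries labelled sme1-1.

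MIOX2, an inositol oxygenase induced by low sugar, had another pattern, with 8, 6, 241 and 9 reads, so its 26.6-fold lower value (13.8 to 58.8) came from the library labelled Col-0 4 °C alone. The neighbours AT1G15825 and AT1G15830 were 28.8-fold (10.9 to 107) and 16.3-fold (11.6 to 23.7) lower, and reads of adjacent genes cannot be told apart by strand here. FLC, the repressor of flowering, had 147, 172, 12 and 30 reads, low in both libraries labelled 4 °C, like SME1. The flowering activator AGL20, also called SOC1, had 393, 1539, 703 and 3340 reads.

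Set beside the pair labelled 20 °C, which shares no library with it, the 4 °C pair had more and larger differences. In the 20 °C pair 8.93% of the genes were 2-fold or more higher with the label sme1-1 and 7.01% as much lower. Of the genes higher in the 4 °C pair 61.2% were also higher in the 20 °C pair, and 80.0% of those higher in the 20 °C pair were higher in the 4 °C pair. On the lower side these shares were 56.6% and 62.6%. The cold-regulated list gave 17 of 20 higher in each pair, with medians of 4.33 and 3.88. Galactinol, sucrose and starch genes had 16 higher in the 4 °C pair and 12 in the 20 °C pair, with medians of 1.27 and 0.59. Abscisic acid genes had 11 and 7 higher, medians 0.59 and 0.12. Flavonoid enzymes went the other way, with 8 and 9 higher, medians 0.84 and 1.16.

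Several defence and mitochondrial lists also had more members higher in the 4 °C pair, a trait not particular to them. The camalexin list had 9 higher and 1 lower in the 4 °C pair but 4 higher and 2 lower in the 20 °C pair, with medians of 1.31 and -0.34. The receptor kinases had 10 and 6 higher, medians 1.84 and 0.77, and the mitochondrial list had 6 and 1 higher, medians 0.82 and 0.09. Glutathione S-transferases had 13 and 6 higher, medians 0.44 and -0.03. With 1 library a group these differences between pairs were not tested. As labelled, they read as effects of the genotype that were more upward at 4 °C than at 20 °C. Under the exchange, they read as cold responses that were more upward in sme1-1 than in Col-0. Under either reading, the camalexin and glutathione S-transferase medians were below 0 in the pair labelled 20 °C.

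The ratios differed by at least 4-fold between both pairs in 79 genes, 64 of them with the larger value in the 4 °C pair. PAD3 had log2 ratios of 6.32 at 4 °C and 1.78 at 20 °C. LEA7, a seed-type protective protein, had 6, 26, 2 and 198 reads. Of the 11 genes at least 2-fold apart in opposite directions, all 11 were higher in the 4 °C pair. CYP71A13, which makes a camalexin precursor, had 786, 156, 393 and 968 reads, and the efflux carrier AT2G04050 had 141, 2, 50 and 427. The reads of CYP71A13 covered less of the gene in both libraries labelled Col-0, as given below. CYP81F2, of indole glucosinolate modification, fell just short of these 11, at a log2 ratio of -0.9999 in the 20 °C pair. It had 121, 60, 55 and 168 reads.

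**Figure D4:**
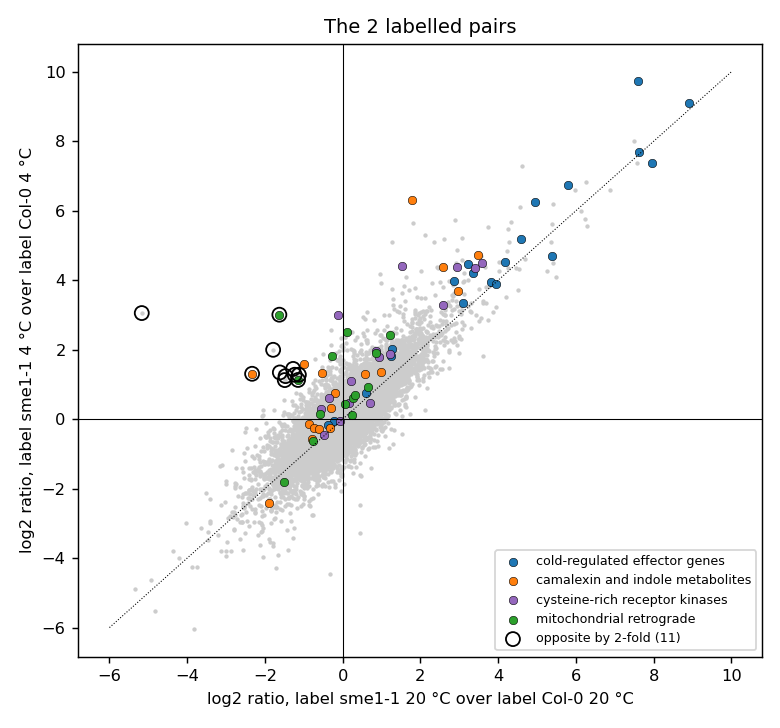
Log2 ratio in the pair labelled 4 °C against that in the pair labelled 20 °C, each grey point 1 of 17218 genes and coloured points members of 4 lists; circles mark the 11 genes at least 2-fold apart in opposite directions, and the dotted line marks equal ratios. Most cold-regulated genes lie near the dotted line, with LTI30 above it by 2.14 log2 units, and several camalexin, receptor kinase and mitochondrial genes lie well above it.

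The deposited coverage is the percent of a gene's length with reads, and it gives no position along the gene. Among 14822 genes with at least 100 reads in both libraries labelled 4 °C, the median difference was 0.33 points, with 64 genes at least 20 points higher with the label sme1-1 4 °C and 28 at least 20 points lower. CYP71A13 differed most, at 36.7% (393 reads) with the label Col-0 4 °C and 96.0% (968 reads) with the label sme1-1 4 °C. In the libraries labelled Col-0 20 °C and sme1-1 20 °C it was at 48.9% (786 reads) and 92.8% (156 reads), so fewer reads covered more of the gene. Its near-identical relative CYP71A12 limits what unique reads can show.

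OFP6, an ovate family repressor, was covered over 59.8% by 164 reads and over 97.5% by 160 reads, a 37.7-point difference at like depth. AT2G28330 went the other way, from 91.2% (299 reads) to 49.0% (172 reads), and AT1G19960 was covered over 78.8% by 509 reads and over 37.0% by 1783. WDR55, DYL1 and AT4G03500 were 37.8, 38.8 and 39.7 points higher, and GIF3, AT5G06265 and AT5G19230 were 28.4, 30.6 and 28.3 points lower. Coverage says nothing of introns or splice sites, and in all of these genes but OFP6 and AT4G03500 the number of reads differed markedly as well.

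Promoter motifs were counted in the windows of 17027 of the 17218 genes, on both strands, with matches of different motifs allowed to overlap. The evening element AAATATCT, bound by clock MYB factors, occurred in 5.98% of all windows. It was in 25.8% of the windows of genes at least 8-fold higher with the label sme1-1 4 °C (39 of 151), in 11.9% of those 2-fold to 8-fold higher, in 5.18% of those within 2-fold and in 4.37% of those at least 4-fold lower; in the windows 2-fold to 4-fold lower the share was 3.51%. The C-repeat core CCGAC was in 16.7% of all windows and in 29.1%, 18.6%, 16.8% and 9.22% of the first 4 of these groups. The abscisic acid response core ACGTG was in 27.4% of all and in 49.0%, 27.7%, 27.0% and 29.1%. The shares of the evening element and the C-repeat core were thus ordered by the ratio over these 4 groups, and that of ACGTG was raised in the group at least 8-fold higher alone. With the windows 2-fold to 4-fold lower included, the C-repeat core kept this order, at 11.5%, and the evening element did not, at 3.51%.

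The other motifs differed less between these groups. The W-box core TTGAC, bound by WRKY factors, was in 8514 of all 17027 windows and in 51.0% of those at least 8-fold higher. The heat shock motif GAANNTTC was in 11.3% of all, 11.9% of those at least 8-fold higher and 14.6% of those at least 4-fold lower. GNATATNC, the phosphate response motif, was in 6.11% of all, in 14 of the 151 windows at least 8-fold higher (9.27%), in 6.80% of those at least 4-fold lower and in 6 of the 17 phosphate starvation genes. A match describes these letters in this window and is no evidence of binding. Of the 20 cold-regulated effector genes, 8 had a C-repeat core in this window and 12 had none. LTI30, LTI78 and COR15A, printed above for their matches, were among the 4 of the 20 with 2 or more, a number reached by 9.27% of the windows at least 8-fold higher and 2.49% of all.

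**Figure D5:**
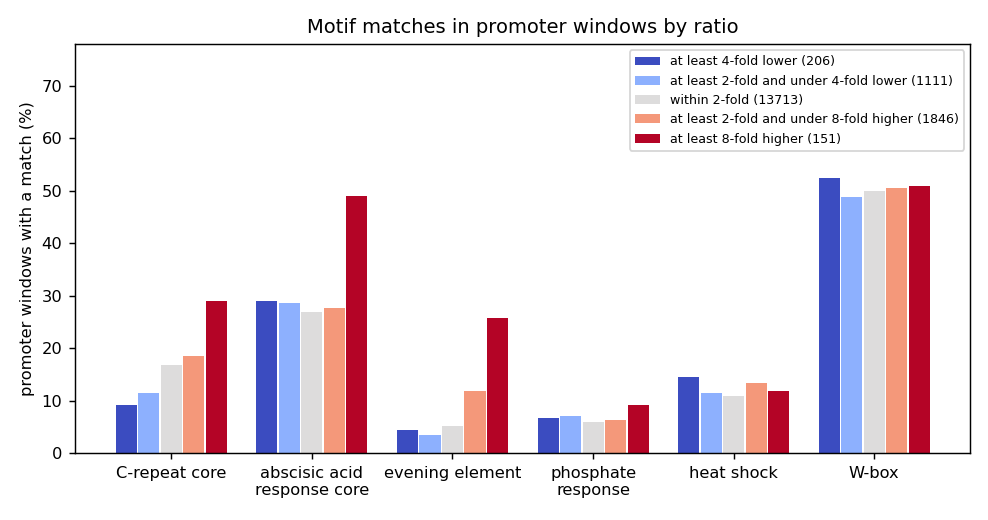
Percent of 300-base promoter windows with at least 1 match of each of 6 motifs, by the ratio between the libraries labelled 4 °C; the legend gives the number of windows in each group. The evening element goes from 4.37% in the lowest group to 25.8% in the highest, and the W-box differs little between the groups.

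Markers of leaf tissue and of other organs were read in each library. The 4 mesophyll markers summed to 43644 to 51947 CPM. RBCS1A made up most of this, at 34005 CPM with the label Col-0 4 °C. Their log2 ratios differed, at -1.27 for RCA, -0.32 for RBCS1A, 0.07 for LHCB2.1 and 0.74 for CAB2. Flower markers (7), seed markers (8) and root markers (7) summed to at most 2.08, 0.356 and 2.09 CPM, and none reached the level filter. With the labels Col-0 4 °C and sme1-1 4 °C, 1 and 2 of the flower markers, 5 and 7 of the seed markers and 4 and 5 of the root markers were at 0. Guard cell markers (4) summed to 92.9 CPM with the label Col-0 4 °C and 92.9 with the label sme1-1 4 °C, phloem markers (3) to 131 and 198, and trichome markers (3) to 39.3 and 23.9. The equal guard cell sums hide differing members: GORK was 3.77-fold higher (3.07 to 4.66), and KAT1 was at a log2 ratio of -0.51. Of the phloem list only SUC2, the sucrose carrier of companion cells, was at least 2-fold higher, at 2.26-fold (2.17 to 2.36), beside the sugar transporter results. The other phloem markers, APL and SEOR1, were lower within 2-fold, at log2 ratios of -0.40 and -0.67. TRY, an inhibitor of trichome fate, was 9.70-fold lower (7.64 to 12.5), whereas GL2 and GL3 were within 2-fold. In whole leaves, fewer cells of a type and less RNA per cell cannot be told apart, and the part of these markers in the results was not tested.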

How the data were processed

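RNA of leaves was sequenced by the submitters in 4 libraries, 1 per group of genotype and temperature, and groups were taken from the labels. Per the file headers, each deposited table lists per gene a count of uniquely mapped reads, the percent of gene length covered by reads, and an RPKM value. The deposited RPKM values were checked against count, length and total and not used further. Per the submitters' processing notes the build was TAIR10; the sources used here do not give the aligner or counter.

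Counts were scaled to library totals (44.6 M to 47.2 M reads) as CPM, and genes absent from a table counted as 0. A mean over all 4 libraries of 1 CPM or more was required. Log2 ratios carry a prior count of 2; folds carry none. Fold intervals are exact (Clopper-Pearson) 95% intervals for counting error only, since reads are not independent molecules. With 1 library per group there is no test and no p-value. A fold against 0 reads uses a limit of 3 reads. The computation was tested on simulated counts.

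Named genes were SME1, SME2, the 15 largest ratios in each direction, up to 4 members furthest from 0 in each of 47 hand-written lists and 22 families found by product name, the 5 largest coverage differences in each direction, and runs of at least 3 neighbours at least 4-fold apart. Genes opposite in both pairs, and AOX1A, FLC, KIN2, COR47, LHY, CCA1, SEX1, CYP81F2, MYB34, GBSS1, PR1, RCI2B, COR413-PM2 and COR314-TM2, were chosen after their values were seen, as were the promoters printed. Members and lists were chosen with earlier results of these data known. Symbols came from the RefSeq TAIR10.1 annotation, which matched 22861 of 23049 gene codes. Alternatives were TMM factors (edgeR 4.0.16), size factors (DESeq2 1.42.0), totals of nuclear genes, other filters and other priors. Python 3.11.15, scipy 1.17.1 and R 4.3.3 were used.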

Additional observations from a re-analysis of the deposited data

Results flagged for a closer look

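For 11 genes the libraries labelled 4 °C and those labelled 20 °C differed by at least 2-fold in opposite directions, each higher with the label sme1-1 in the 4 °C pair and lower in the 20 °C pair. With 1 library per group the difference between the pairs was not tested. The log2 ratios in the 4 °C pair were 3.01 for the auxin glucosyltransferase UGT74E2, 3.05 for the MATE efflux gene AT2G04050 and 1.997 for AT2G18193, annotated as a P-loop nucleoside triphosphatase. CYP71A13 of camalexin synthesis was at 1.31, BCS1, an AAA protein of the mitochondrial stress response, at 1.13 and AT2G21640, a marker of oxidative stress, at 1.35. For CYP71A13 reads covered 48.9% and 36.7% of the gene with the labels Col-0 20 °C and Col-0 4 °C. With the labels sme1-1 20 °C and sme1-1 4 °C they covered 92.8% and 96.0%. Its near-identical relative CYP71A12 limits what these unique reads can show. The metacaspase MC8 was at 1.45, the sulphur transfer protein SUFE2 at 1.28, the defence gene LURP1 at 1.13, AT2G17500 of the auxin efflux carrier family at 1.28, and AT1G17960, annotated as a threonyl-tRNA synthetase, at 1.24. For these genes and BCS1 the counting interval of the fold reached below 2 in at least 1 pair. SUFE2, with 63, 28, 42 and 104 reads, was 1.73-fold to 3.66-fold higher in the 4 °C pair and 1.43-fold to 3.68-fold lower in the 20 °C pair. AT1G17960, AT2G18193 and BCS1 had more reads in both libraries labelled 4 °C than in both labelled 20 °C: 20, 6, 111 and 263 reads, 94, 26, 264 and 1052 reads, and 264, 119, 429 and 934 reads.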

How the results depend on the processing

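No paired analysis was possible because each group had 1 library, and no replicate could be left out. Without the level filter 3234 genes were 2-fold or more higher and 2283 as much lower, and with a mean of at least 10 CPM 1057 and 635, since more or fewer genes were compared. TMM factors, size factors, nuclear totals, a filter on both libraries compared and priors of 0.5 or 10 kept both counts within 1.5 times of 2009 and 1335. The percent of differing genes that were higher was 60.1 with library totals, 51.1 with TMM factors and 51.7 with size factors. Counts of genes at least 20 points higher and lower in coverage were 162 and 84 at a limit of 50 reads, 31 and 14 at 200 reads, and 18 and 10 among genes with levels within 1.5 times of each other. No named gene that was at least 2-fold apart changed direction under another scaling or prior. Of these 258 named genes, 253 stayed at least 2-fold apart in every alternative. Under the other 3 scalings, 60 of 66 lists kept both counts within 1.5 times; aliphatic glucosinolates lost all 3 higher members with TMM factors. Depth limits genes with few reads: 0 reads allows up to 0.0672 CPM.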

Other observations

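For comparison, 11.7% of all genes compared were higher and 7.75% lower. Of 39 cell cycle and DNA damage genes 0 were 2-fold higher and 4 lower (10.3%), among them ICK1, a kinase inhibitor, with 1748, 528, 1462 and 250 reads in the order of the report (Col-0 then sme1-1 labelled 20 °C, followed by the same labelled 4 °C). Of 21 cytokinin genes 4 were higher (19.05%) and 0 lower, with the response regulators ARR7 and ARR6 at 2.80-fold (2.55 to 3.07) and 2.39-fold (2.13 to 2.69). Of 20 peroxidases 6 were lower (30%) and 1 higher. Of 23 jasmonate genes 3 were higher and 3 lower. The jasmonate factor MYC2 had 1810, 380, 2072 and 461 reads and was 4.46-fold lower (4.03 to 4.95), whereas AOC2, an enzyme of jasmonate synthesis, had 519, 6208, 1336 and 9946 reads and was 7.50-fold higher (7.08 to 7.95).

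Of 55 TIR-NBS-LRR genes, a class of immune receptors, 8 were higher (14.5%) and 1 lower. AT1G63880 had 501, 3044, 492 and 4012 reads, 8.22-fold higher (7.48 to 9.04). Of 31 genes of antioxidants and copper economy 3 were higher and 4 lower. VTC2, of vitamin C synthesis, had 58489, 11642, 50263 and 12845 reads, 3.88-fold lower (3.81 to 3.96).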
